A study of Mus musculus with 6 samples.

Results

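Transcript levels of 10 genes that make, hold and receive transforming growth factor beta (TGF-beta) were examined in obstructed mouse kidneys: the ligands Tgfb1, Tgfb2 and Tgfb3, the receptors Tgfbr1, Tgfbr2 and Tgfbr3, and the latent TGF-beta binding proteins Ltbp1, Ltbp2, Ltbp3 and Ltbp4. They were chosen by gene name from the 33679 genes of the deposited table. Each name matched 1 row, and all 10 passed the filter on low values (0.5 FPKM on average across the libraries), as did 16871 genes in all. FPKM, the fragments of a gene divided by its transcript length and by the mapped fragments of the library, is scaled for length, so levels of different genes can be set side by side.

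The kidneys came from mice with a Cd248 knockout and from wild type mice, and both groups had undergone unilateral ureteral obstruction, a ligation of 1 ureter after which the blocked kidney becomes inflamed and scarred. Cd248 encodes endosialin, a membrane glycoprotein of fibroblasts and pericytes. The labels name 3 samples per group, and values of 1 knockout library (replicate 1) and 3 wild type libraries were analysed here. The labels state no strain, age, time after surgery or way in which the knockout was made, and the labels' protocols speak of pooled RNA. No unobstructed kidney was analysed here. Each knockout value is thus a single measurement, and the errors given are those of the wild type libraries.

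TGF-beta is secreted in a latent form, in which the mature growth factor stays wrapped in its own propeptide. In most cells the propeptide is linked to a latent binding protein, which anchors the complex to fibrillin and fibronectin fibres of the matrix. Integrins, thrombospondin and proteases can release the growth factor. It then binds the type II receptor, which recruits and phosphorylates the type I receptor, and Smad proteins carry the signal to the nucleus. In the kidney the pathway is a well-known driver of myofibroblast formation and matrix deposition.

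The labels were checked first. Cd248 had 0 FPKM listed in the knockout sample, against 9.03, 9.57 and 8.78 FPKM in wild type replicates 1, 2 and 3 (limma adjusted p = 0.0030). Between 14535 and 14820 genes reached 1 FPKM in a library, and read depth is unknown. All 13 kidney tubule markers were detected, with summed levels of 1001 FPKM in the knockout sample, against 654 to 1097 FPKM in the wild type libraries. Over all tested genes, 14 were lower and 108 higher in the knockout library by limma (adjusted p under 0.05), which is 0.083% and 0.64% of the genes tested. These counts were 2 lower and 51 higher without wild type replicate 1, 1 lower and 72 higher without replicate 2, 4 lower and 41 higher without replicate 3, and 1 lower and 5 higher with immunoglobulin genes left out and the libraries rescaled to 1 FPKM total without them.

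Promoter sequences are shown for 3 of the genes, Ltbp1 because its level differed most between the groups, and Tgfb2 and Tgfb1 as ligands with estimated differences of -0.60 and -0.25 (log2 scale, knockout minus wild type), which were not tested against each other. Each is the stretch of 250 bases before a RefSeq transcription start (GRCm38.p6), written 5′ to 3′ on the strand of the gene. Capitals mark matches on either strand to CAGAC, to TGACGTCA or to TATAAA. Ltbp1 has 2 windows in the RefSeq table, of which the upstream one is printed, and the other holds 2 matches to CAGAC and none to TGACGTCA or TATAAA.
Ltbp1, chr17:75005279-75005528, plus strand: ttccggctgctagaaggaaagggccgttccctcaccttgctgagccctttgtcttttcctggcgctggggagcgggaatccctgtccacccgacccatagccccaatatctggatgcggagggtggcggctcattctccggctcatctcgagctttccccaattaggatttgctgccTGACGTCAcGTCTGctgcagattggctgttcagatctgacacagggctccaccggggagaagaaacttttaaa
Tgfb2, chr1:186705990-186706239, minus strand: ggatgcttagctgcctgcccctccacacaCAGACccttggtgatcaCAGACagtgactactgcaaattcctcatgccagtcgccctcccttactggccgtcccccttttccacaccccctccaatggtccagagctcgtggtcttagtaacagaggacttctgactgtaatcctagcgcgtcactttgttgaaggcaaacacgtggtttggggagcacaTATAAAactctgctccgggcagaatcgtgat
Tgfb1, chr7:25686752-25687001, plus strand: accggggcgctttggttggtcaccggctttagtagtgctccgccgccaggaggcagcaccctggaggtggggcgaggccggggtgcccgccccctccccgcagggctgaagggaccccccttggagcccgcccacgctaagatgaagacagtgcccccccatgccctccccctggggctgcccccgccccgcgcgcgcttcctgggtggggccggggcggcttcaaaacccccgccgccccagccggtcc

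The RefSeq table held 12 such windows for 8 of the 10 genes. They are not all separate, as the Ltbp4 windows chr7:27333649-27333898 and chr7:27333664-27333913 overlap over most of their length. TGACGTCA, the cyclic AMP response element, stood in 1 of the 12, at positions -73 to -66 of the Ltbp1 window above, and in 1.55% of all 32851 windows of the table. TATAAA, the TATA box, stood in 1 of the 12, at -31 to -26 of Tgfb2, and in 12.4% of all windows. CAGAC, the core of Smad binding sites, stood in 7 of the 12, among them both Ltbp1 windows and that of Tgfb2, and in 42.2% of all windows. The Tgfb1 window held none of these letters. The palindromic Smad box GTCTAGAC, the AP-1 site TGANTCA, the TEAD site GGAATG and the CArG box of serum response factor were found in 0 of the 12 windows and in 0.167%, 6.75%, 12.6% and 1.47% of all windows. No 2 matches overlapped, and a match describes these letters only.

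In 9 of 10 the knockout value was lower than every wild type value, where 31.2% of all tested genes were below and 28% above every wild type library. The exception was Ltbp2, and none lay above. The median difference of the 10 genes, knockout minus wild type on the log2(FPKM + 1) scale, was -0.29, against -0.01 over all tested genes. By limma's test adjusted over all genes, 0 of 10 passed, and 4 of 10 (Tgfb2, Tgfb3, Tgfbr1 and Ltbp1) had an unadjusted p under 0.05 with a negative difference, as did 5.63% of all tested genes. An exact permutation test of 1 library against 3 cannot give a p under 0.25. In bulk tissue, fewer cells of a type and less RNA per cell cannot be told apart.

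**Figure D1:**
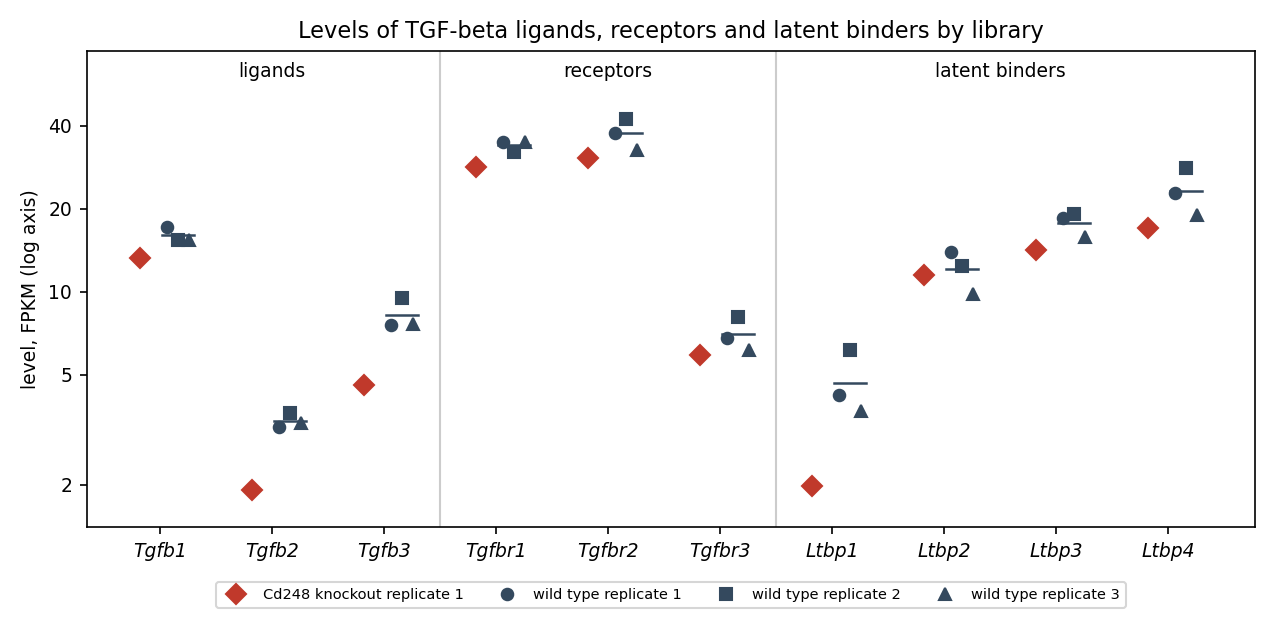
Level of each gene in FPKM (log axis) in the knockout library (diamonds) and in the 3 wild type libraries (circles, squares and triangles), with the wild type mean as a line. The diamond lies under all wild type points for every gene but Ltbp2, and the widest gap in proportion is that of Ltbp1, at 1.97 FPKM in the knockout sample against 3.69 to 6.15 FPKM in wild type.

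Among the ligands, Tgfb2 and Tgfb3 were at 56.1% and 55.8% of their wild type mean and Tgfb1 at 83.0%. Tgfb1 (ENSMUSG00000002603; mm10, chromosome 7, 25687002 to 25705077, plus strand), the isoform most studied in kidney fibrosis, was at 13.3 FPKM in the knockout sample, against 17.16, 15.46 and 15.46 FPKM in wild type replicates 1, 2 and 3. Its knockout value lay 2.16 FPKM under the lowest wild type value, and the difference was -0.25 (SE 0.10; 95% interval -0.52 to 0.02; adjusted p = 0.493). Tgfb2 (chromosome 1, 186622792 to 186705989, minus strand), the isoform whose propeptide lacks the RGD motif that integrins bind in the other two, was at 1.91 FPKM in the knockout sample, against 3.23, 3.64 and 3.34 FPKM in the wild type libraries. The wild type values were close together, with an SD of 0.21 FPKM, and the knockout value was 1.78 times lower than their mean, a difference of -0.60 (SE 0.11; 95% interval -0.89 to -0.30; adjusted p = 0.247).

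Tgfb3 (chromosome 12, 86056745 to 86079041, minus strand), a ligand known for its part in palate fusion, was at 4.61 FPKM in the knockout sample, against 7.60, 9.54 and 7.63 FPKM in the wild type libraries. Wild type replicate 2 stood above the other two, and the knockout library lay 2.99 FPKM under the lowest of them. The level was 1.79 times lower than the wild type mean, with a difference of -0.72 (SE 0.16; 95% interval -1.14 to -0.30; adjusted p = 0.287). Tgfb2 and Tgfb3 had the same direction as Tgfb1, and their intervals lay below 0 while that of Tgfb1 did not. An interval that holds 0 in 1 gene and not in another does not show that the genes differ, and this was not tested.

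The make-up of the ligand pool was compared within each library, which removes any scaling between libraries. Tgfb1 made up 67.1% of the summed ligand FPKM in the knockout sample, against 61.3%, 54.0% and 58.5% in wild type replicates 1, 2 and 3. Tgfb3 made up 23.3% in the knockout sample, against 27.2%, 33.3% and 28.9% in the wild type libraries, and Tgfb2 made up 9.64% in the knockout sample, against 11.5%, 12.7% and 12.6% in wild type. All 3 knockout shares lay outside the wild type range, with Tgfb1 above it and the other two below it. As parts of 1 sum, the shares are not separate observations, since lower shares of some genes raise those of others. The summed level of the 3 ligands was 19.8 FPKM in the knockout sample, against 27.7 ± 1.14 FPKM in wild type (SD, n = 3). With 1 knockout library these shares have no test beyond the range of the wild type libraries.

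**Figure D2:**
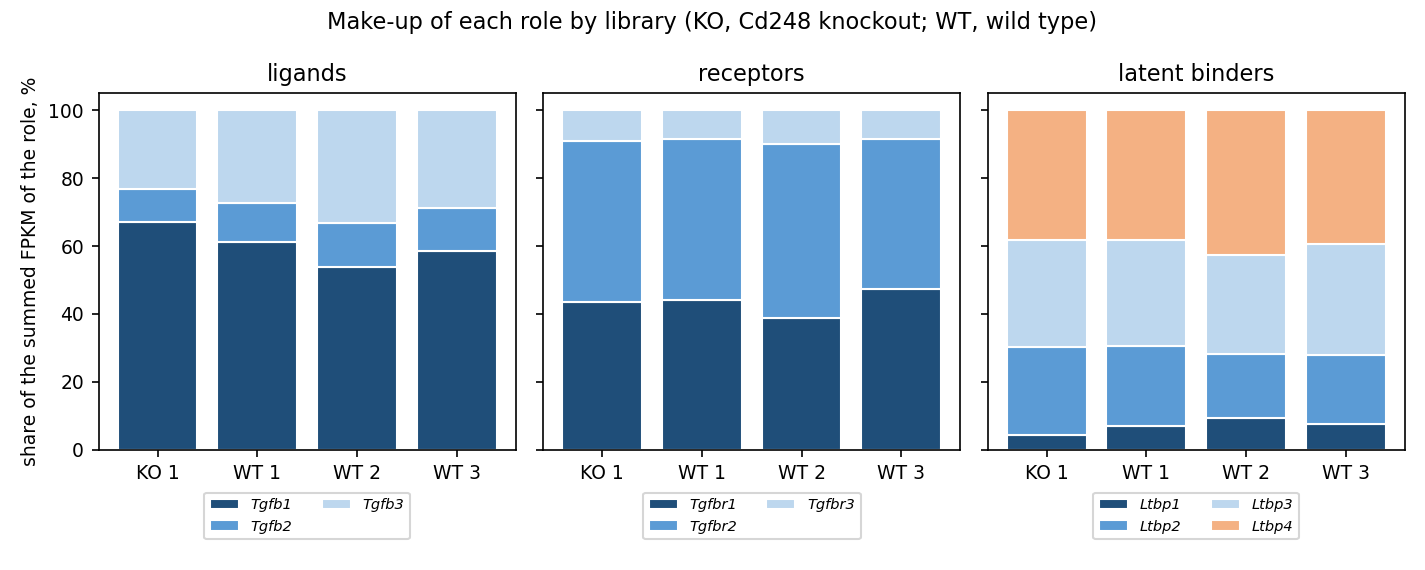
Share of each gene in the summed FPKM of its role (percent), in the knockout library (KO) and the 3 wild type libraries (WT). The Tgfb1 band is tallest in the knockout library at 67.1%, the receptor shares of the knockout library lie inside the wild type range, and the Ltbp1 band is smallest in the knockout library at 4.41%.

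The signalling receptors were the most abundant of the 10 and were all slightly below wild type. Tgfbr1 (chromosome 4, 47353222 to 47414931, plus strand), the type I receptor kinase that phosphorylates Smad2 and Smad3, was at 28.3 FPKM in the knockout sample, against 35.04, 32.17 and 34.95 FPKM in the wild type libraries. The difference was -0.26 (SE 0.09; 95% interval -0.51 to -0.003; adjusted p = 0.458), with the knockout value 3.88 FPKM under the lowest wild type value. Tgfbr2 (chromosome 9, 116084293 to 116175360, minus strand), the type II receptor that binds the ligand first, was at 30.6 FPKM in the knockout sample, against 37.83, 42.37 and 32.81 FPKM in the wild type libraries. Its wild type libraries spread more widely, and the difference was -0.28 (SE 0.16; 95% interval -0.72 to 0.15; adjusted p = 0.608).

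Tgfbr3 (chromosome 5, 107106570 to 107289629, minus strand), betaglycan, a co-receptor that presents ligand and is needed most by TGF-beta 2, was at 5.90 FPKM in the knockout sample, against 6.79, 8.11 and 6.17 FPKM in the wild type libraries. The knockout value lay 0.27 FPKM under the lowest wild type value, the narrowest such gap of the 9 genes, and the difference was -0.21 (95% interval -0.64 to 0.22; adjusted p = 0.689). The receptor make-up did not leave the wild type range. Tgfbr1 held 43.6% of the receptor sum in the knockout sample, against 38.9% to 47.3% in wild type, Tgfbr2 held 47.3% in the knockout sample and 44.4% to 51.3% in wild type, and Tgfbr3 held 9.10% in the knockout sample and 8.35% to 9.81% in wild type. Summed ligands over summed receptors came to 0.306 in the knockout sample, against 0.351, 0.347 and 0.358 in the wild type libraries, a ratio whose wild type SD was 0.0055.

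The latent binding proteins spanned the widest range of differences, from -0.91 to -0.05. Ltbp1 (ENSMUSG00000001870; chromosome 17, 75005568 to 75392512, plus strand), which binds the latent complex of all 3 TGF-beta isoforms, was at 1.97 FPKM in the knockout sample, against 4.23, 6.15 and 3.69 FPKM in wild type replicates 1, 2 and 3. Replicate 2 was the highest wild type library, and the knockout value was 2.38 times lower than the wild type mean of 4.69 ± 1.29 FPKM (SD, n = 3). The difference was -0.91 (SE 0.26; 95% interval -1.63 to -0.20; limma adjusted p = 0.390), and 168 of 16871 tested genes had a lower one. In the authors' deposited table Ltbp1 is marked significant and down with a fold change of 0.42, as are 0.496% of the genes in that table, and the other 9 genes are not marked. The direction is the same in both tests, and only the authors' test, whose kind is not stated, passed its threshold.

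Ltbp2 (chromosome 12, 84783212 to 84876532, minus strand), which unlike its relatives does not bind latent TGF-beta, was at 11.5 FPKM in the knockout sample, against 13.97, 12.45 and 9.81 FPKM in the wild type libraries. The knockout value lay inside the wild type range, and the difference was -0.05 (95% interval -0.60 to 0.50; adjusted p = 0.945). Without wild type replicate 1 its sign turned to 0.05 (adjusted p = 0.927, between 0.593 and 0.99 over its alternatives).

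Ltbp3 (chromosome 19, 5740904 to 5758532, plus strand), which is needed for TGF-beta action in bone and teeth, was at 14.2 FPKM in the knockout sample, against 18.53, 19.15 and 15.81 FPKM in the wild type libraries (-0.31, SE 0.13; adjusted p = 0.520). Ltbp4 (chromosome 7, 27305136 to 27337692, minus strand), which takes part in elastic fibre assembly and binds latent TGF-beta 1, was at 17.1 FPKM in the knockout sample, against 22.83, 28.08 and 18.97 FPKM in the wild type libraries (-0.41, SE 0.23; adjusted p = 0.595). Both knockout values lay under all wild type values, by 1.63 and 1.9 FPKM, and both intervals held 0.

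Within the pool of latent binders, Ltbp1 made up 4.41% in the knockout sample, against 7.10%, 9.34% and 7.64% in the wild type libraries. Ltbp2 made up 25.7% in the knockout sample, against 23.5%, 18.9% and 20.3% in wild type, the only gene of the pool whose share was above the wild type range. Ltbp3 was inside the range in the knockout sample at 31.7%, and Ltbp4, at 38.2%, was just under the lowest wild type share of 38.3%. The level of Ltbp1 over that of Ltbp2 was 0.171 in the knockout sample, against 0.303, 0.494 and 0.376 in the wild type libraries. Summed binders over summed ligands were inside the wild type range, at 2.26 in the knockout sample, against 1.83 to 2.30 in wild type. The pool and this sum include Ltbp2, which does not bind latent TGF-beta, so they do not measure binding capacity.

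**Figure D3:**
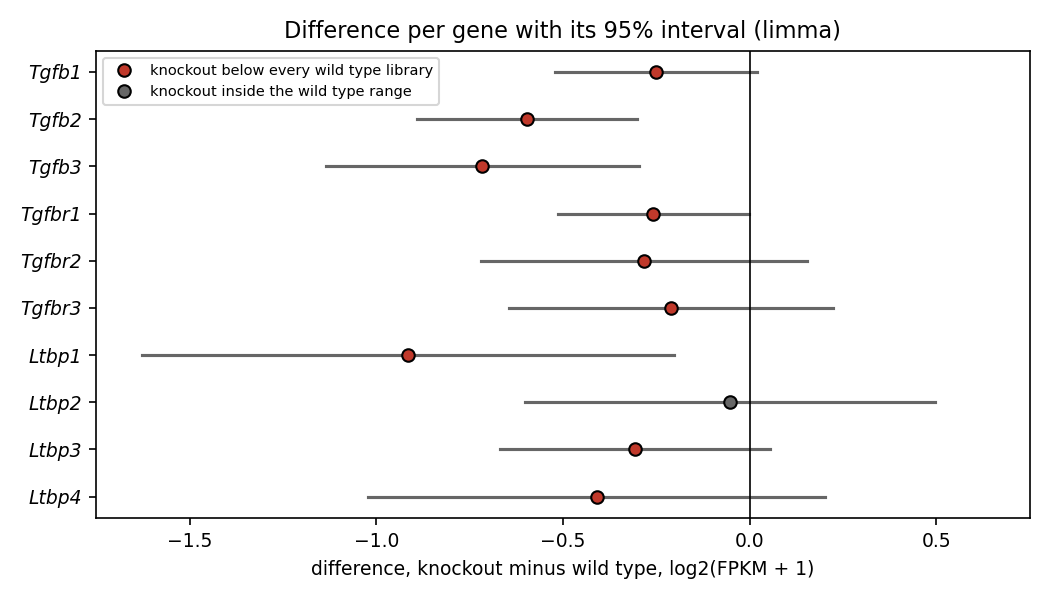
Difference of each gene, knockout minus wild type on the log2(FPKM + 1) scale, with its 95% interval from limma. Points run from -0.91 for Ltbp1 to -0.05 for Ltbp2, and the intervals of 4 genes (Tgfb2, Tgfb3, Tgfbr1 and Ltbp1) lie below 0.

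The order of levels was nearly the same in the knockout and wild type kidneys. By wild type mean it was Tgfbr2 at 37.7 FPKM, Tgfbr1 at 34.1, Ltbp4 at 23.3, Ltbp3 at 17.8, Tgfb1 at 16.0, Ltbp2 at 12.1, Tgfb3 at 8.26, Tgfbr3 at 7.02, Ltbp1 at 4.69 and Tgfb2 at 3.40 FPKM. In the knockout library 8 of the 10 held the same place, and Tgfbr3 stood above Tgfb3. The wild type ranges of 4 of the 9 neighbouring pairs overlapped, namely Tgfbr2 with Tgfbr1, Ltbp4 with Ltbp3, Ltbp3 with Tgfb1, and Tgfb3 with Tgfbr3. Among the wild type libraries, replicate 2 was the highest for 7 genes and replicate 1 for 3.

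Reads of overlapping genes could be split or shared in the authors' counting, and the sources name no strand setting. Exons on the opposite strand overlap Ltbp2 (D030025P21Rik, 764 bases), Tgfb2 (Gm29491, 124 bases) and Tgfb3 (Gm37804, 163 bases, and Gm48008, 257 bases), and on the same strand those of Gm43422 overlap Tgfbr3 by 297 bases, in the GENCODE M21 annotation. D030025P21Rik, Gm29491, Gm37804 and Gm43422 were at 0.24 FPKM or less in every library, and Gm48008 was not analysed here.

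Markers of stromal and vascular cells had lower summed levels in the same knockout sample. Over all tested genes, 31.2% lay below every wild type library. Fibroblast and pericyte markers summed to 339 FPKM in the knockout sample, against 594 to 791 FPKM in wild type. Of 14, 11 lay below every wild type library and 3 inside the range, 1 was called lower (Col1a1), and the median difference was -0.56. This sum is led by 3 collagens that are also on the list of TGF-beta target genes, Col1a1, Col1a2 and Col3a1. They were at 68.8, 50.1 and 83.2 FPKM in the knockout sample, against wild type means of 163, 107 and 191 FPKM. The 3 markers inside the range were Cspg4, Lum and Dpt. Cspg4 was at 4.16 FPKM in the knockout sample, against 4.35, 3.82 and 3.58 FPKM in wild type. Pdgfrb, a receptor of pericytes and fibroblasts, was at 27.3 FPKM in the knockout sample, against 40.75, 42.99 and 33.14 FPKM in wild type (adjusted p = 0.445). Endothelial markers summed to 170 FPKM in the knockout sample against 218 to 275 FPKM in wild type, with 11 of 11 below every wild type library, 0 called, 5 of 11 with an unadjusted limma p under 0.05, and a median of -0.42. Urothelium markers had a median of -1.82 (6 of 7 below), and their sums were 25.7 FPKM in the knockout sample, against 31.5 to 106 FPKM in wild type.

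The leukocyte lists had medians at or above 0. Over all tested genes, 28% lay above every wild type library, a share to set beside the counts given here. B and plasma cell markers summed to 375 FPKM in the knockout sample, against 30.5 to 50.2 FPKM in wild type. Of 10 listed genes 8 were tested and 5 called higher, with a median of 1.84. Jchain alone was at 310 FPKM in the knockout sample, against 10.72, 6.60 and 5.29 FPKM in wild type. Of the 8, 7 lay above every wild type library. Sdc1 lay below, at 18.5 FPKM in the knockout sample against 32.06, 23.99 and 19.24 FPKM in wild type. T and NK cell markers had a median of 0.45 (7 of 8 tested above every wild type library, 0 called), and macrophage and monocyte markers one of 0.01 (2 of 12 above, 10 inside). Tubule markers had a median of 0.31 (5 of 13 above every wild type library) and podocyte markers one of 0.10 (6 of 6 inside). Upk2, a uroplakin of the urothelium, was the only marker listed at 0 in the knockout sample, and Tnfrsf17, a receptor of plasma cells, was the only one listed at 0 in wild type, in replicates 1 and 2. The summed ligands were at 0.716, the receptors at 0.823 and the latent binders at 0.772 of their wild type mean. The fibroblast and pericyte markers were at 0.505, a sum led by Col1a1, Col1a2 and Col3a1, and the endothelial markers at 0.706. The part of these cell types in the levels of the TGF-beta genes was not tested.

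**Figure D4:**
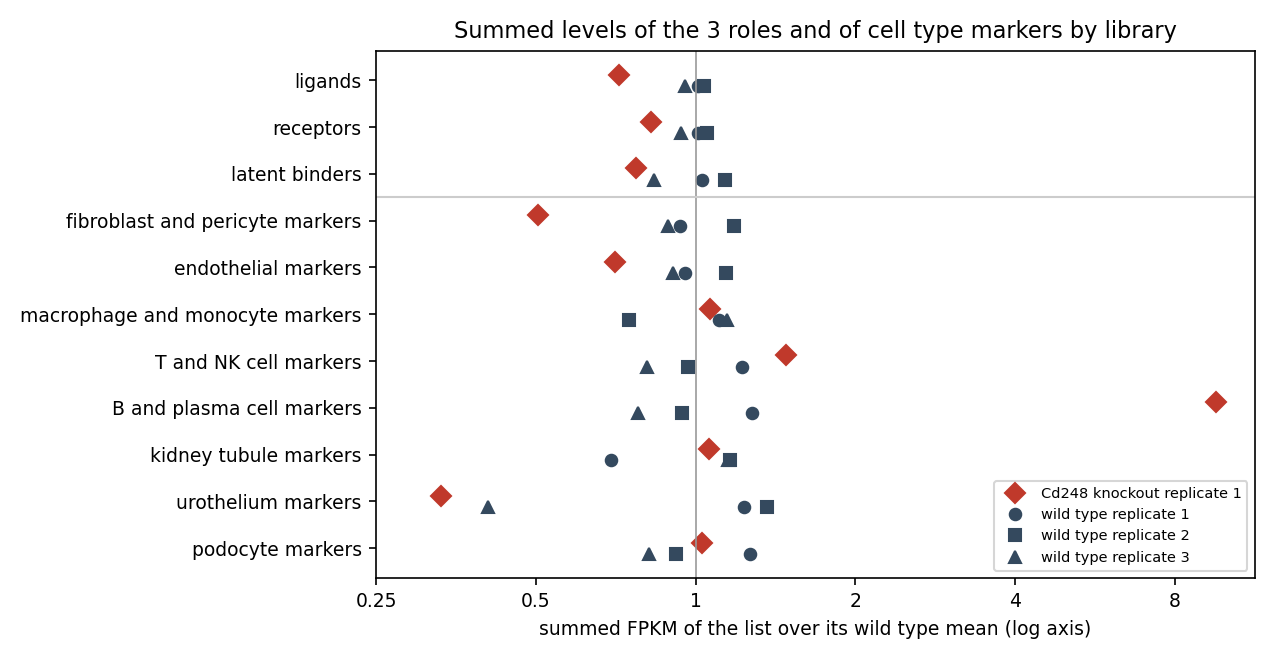
Summed FPKM of the ligands, receptors and latent binders and of cell type marker lists, each divided by its wild type mean (log axis), in the knockout library (diamonds) and the wild type libraries. The 3 roles lie at 0.716 to 0.823 in the knockout library, fibroblast and pericyte markers at 0.505, and B and plasma cell markers at 9.56. The fibroblast and pericyte sum is led by 3 collagens, and the B and plasma cell sum of the knockout library by Jchain.

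Genes that store and release latent TGF-beta had a median difference of -0.33. For this list and those that follow, the shares over all tested genes were 31.2% below and 28% above every wild type library. Of 18, 0 passed limma's test, 9 had an unadjusted limma p under 0.05 (10.8% of all tested genes did), 10 lay below every wild type library and 2 above. Thbs1, thrombospondin 1, an activator of latent TGF-beta, was at 31.8 FPKM in the knockout sample, against 101.17, 87.32 and 81.26 FPKM in wild type (-1.47, SE 0.15; limma adjusted p = 0.0550), and it passed under 3 of 11 alternatives. Lrrc32, the GARP protein that docks latent TGF-beta on cell surfaces, was at 6.74 FPKM in the knockout sample against 14.46, 18.60 and 10.71 FPKM in wild type (adjusted p = 0.413). Mmp9, a gelatinase, was at 2.60 FPKM in the knockout sample, inside wild type values of 17.43, 1.28 and 8.82 FPKM (adjusted p = 0.792). The 2 genes above every wild type library, named after their values were seen, were Plau, the urokinase plasminogen activator (195 FPKM in the knockout sample against 133 to 158 FPKM in wild type), and Itgb8, a subunit of an integrin that activates TGF-beta (12.6 FPKM in the knockout sample against 8.42 to 9.89 FPKM in wild type).

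Co-receptors and extracellular modulators had a median of -0.36. Of 13, 0 passed, 5 had an unadjusted limma p under 0.05, 9 lay below every wild type library and 1 above. Dcn, decorin, a proteoglycan that binds TGF-beta and also a fibroblast marker, was at 21.8 FPKM in the knockout sample, against 43.39, 59.03 and 30.94 FPKM in wild type (-0.95; adjusted p = 0.479). Cd109, a co-receptor that restrains signalling, was at 0.89 FPKM in the knockout sample against 2.20, 2.58 and 2.60 FPKM in wild type (-0.87; adjusted p = 0.155). Eng, endoglin, a co-receptor of endothelial cells, was at 31.1 FPKM in the knockout sample against 46.70, 55.19 and 43.30 FPKM in wild type (-0.62; adjusted p = 0.343).

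Smad transducers and their regulators were nearer to wild type, with a median of -0.19. Of 15, 0 passed, 3 had an unadjusted limma p under 0.05, 11 lay below every wild type library and 1 above. Pmepa1, a feedback inhibitor, was at 24.3 FPKM in the knockout sample, against 36.22, 36.15 and 30.35 FPKM in wild type (-0.48; adjusted p = 0.386). Skil, a repressor of Smad transcription that TGF-beta induces, was at 9.07 FPKM in the knockout sample against 12.58, 11.70 and 11.31 FPKM in wild type (-0.35; adjusted p = 0.368). Smad7, the inhibitory Smad, was at 5.90 FPKM in the knockout sample against 8.15, 6.93 and 6.78 FPKM in wild type (-0.26; adjusted p = 0.560).

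Target genes of the pathway had the lowest median of the 4 pathway lists, -1.08. Of 23 genes, 3 were called lower, 0 higher, 19 lay below every wild type library and 0 above. Ltbp2 is counted here among the latent binders and is also on this list. The list holds 3 collagens (Col1a1, Col1a2 and Col3a1) that are also fibroblast markers. Acta2, the actin of myofibroblasts, fell to 38.9 FPKM in the knockout sample, against 136 ± 7.81 FPKM in wild type (SD, n = 3; limma adjusted p = 0.0153). Fn1, fibronectin, fell to 41.0 FPKM in the knockout sample, against 107 ± 9.05 FPKM in wild type (limma adjusted p = 0.0456). Col1a1, a chain of type I collagen, fell to 68.8 FPKM in the knockout sample, against 163 ± 6.21 FPKM in wild type (limma adjusted p = 0.0313). Each lost its call when any 1 wild type library was left out, with limma adjusted p of 0.108 to 0.119 for Acta2, 0.152 to 0.264 for Fn1 and 0.142 to 0.309 for Col1a1, and over all alternatives from 0.00757 to 0.119, 0.029 to 0.264 and 0.0204 to 0.309. Ccn2, connective tissue growth factor, was at 50.5 FPKM in the knockout sample against 146.18, 190.68 and 166.83 FPKM in wild type (adjusted p = 0.0554), and Cnn1, calponin of contractile cells, was at 1.49 FPKM in the knockout sample against 4.61, 5.68 and 5.91 FPKM in wild type (adjusted p = 0.0762). Ccn2 and Cnn1 each passed under 1 of 11 alternatives, and Acta2, Fn1 and Col1a1 under 7, 4 and 5 of them. Those 3 also lost their calls with immunoglobulin genes left out and all libraries kept.

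**Figure D5:**
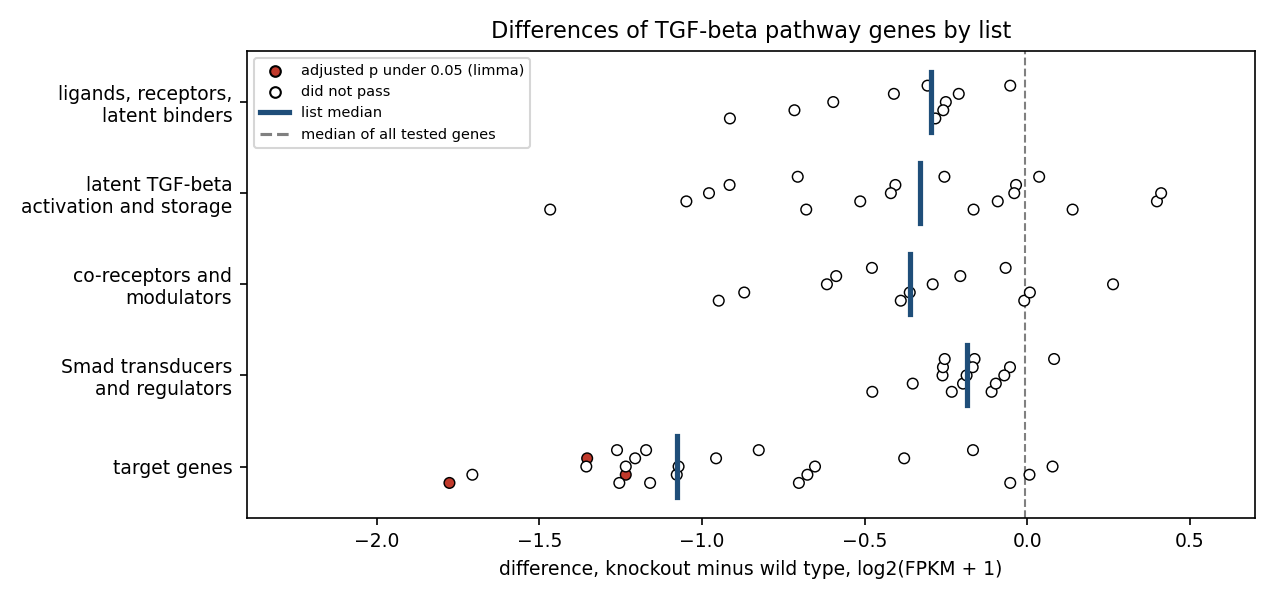
Difference of each gene, knockout minus wild type on the log2(FPKM + 1) scale, for the 10 TGF-beta genes and 4 lists of the pathway. Thick bars are list medians, from -1.08 for target genes to -0.19 for Smad genes, the dashed line is the median of all tested genes at -0.01, and filled points are the 3 genes that passed limma's test.

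Across the 4 libraries, the genes whose pattern was closest to that of Ltbp1 were Fbn1, Col6a1, Smoc2, Col14a1 and Serpinf1. Closeness was the root mean square distance of the 4 log2 values, each set relative to the wild type mean of its gene, over the 14801 genes that averaged 1 FPKM or more. These distances ran from 0.05 for Fbn1 to 0.07 for Serpinf1, and 57 genes came within 0.15. Fbn1, fibrillin 1, was at 10.1 FPKM in the knockout sample, against 19.26, 24.37 and 16.61 FPKM in wild type, and as with Ltbp1 replicate 2 was the highest wild type library. With 4 libraries this likeness is a description only.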

How the data were processed

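RNA of obstructed kidneys was purified on oligo(dT) beads and sequenced, per the labels' protocols. The submitters' processing notes list cutadapt 1.9, FastQC, HISAT2 2.0.4 and mm10, without roles. The program behind the FPKM values, and its annotation, is not given in sources used here. The authors deposited FPKM values with 2 decimals for 33679 genes. The deposited fold change is a ratio of the knockout FPKM to the wild type mean, the deposited log2 fold change is its log2, and the deposited p-value and q-value are the authors' own. Low values of genes with a single transcript did not sit on whole-read steps, so depth is unknown.

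Groups came from sample titles, and replicates 2 and 3 of the knockout were not used here. Values were analysed as log2(FPKM + 1), which understates changes of low genes. Those averaging 0.5 FPKM or more were fitted with limma 3.58.1 (R 4.3.3) with a mean-variance trend, two-sided, with Benjamini-Hochberg adjustment over 16871 genes and a threshold of 0.05. The fit had 2 residual and 2.32 prior degrees of freedom. Only wild type libraries inform the spread, which the lone knockout library is assumed to share. Nothing says that replicates came from separate animals, so p-values reflect library-to-library spread alone, possibly technical. A simulation that gave every library the wild type spread checked only that the fit returns known changes on average, larger than those of the members. It does not test whether the knockout library shares that spread.

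Members and lists were chosen with earlier results of these data known. The text names all members, Cd248, and from each pathway list the called genes and the 3 largest differences at a mean of at least 1 FPKM, with the 5 genes nearest in pattern to the member that differed most. Other genes are marked as chosen after their values were seen or illustrate a marker list. Coordinates are from GENCODE M21 (GRCm38, the same assembly as mm10) by gene ID. Not every overlapping gene is reported here. Alternatives were another pseudocount, filters, scalings and variance model, immunoglobulin genes left out with libraries rescaled to the same total without them, and each wild type library left out.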

Additional observations from a re-analysis of the deposited data

How the results depend on the processing

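Over 11 alternatives, 109 of 110 differences of the 10 TGF-beta genes kept their sign, and 0 passed limma's threshold. The exception was Ltbp2, at 0.0519 without wild type replicate 1, with values from -0.1829 to 0.0519 when 1 wild type library was left out. In every alternative 9 or 10 of the 10 lay outside the wild type range, and without 1 wild type library the knockout share of Tgfb1 among the ligands exceeded wild type by 7.20 to 10.9 percentage points. Only the alternatives that rescale the libraries could have lowered the count of 9. Another pseudocount, filter or variance model, or 1 wild type library less, cannot lift a value that is below every wild type library. For those 9 genes the sign was fixed in these alternatives too. Scaling to the same FPKM total moved the median of all tested genes to -0.11 and that of the 10 to -0.42.

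Counts over all genes moved more. With a pseudocount of 0.1 FPKM, 39 genes passed (33 higher, 6 lower, 1 of the pathway lists). With no filter, 205 passed (201 higher, 4 lower, 1 of the pathway lists). The same FPKM total gave 24 lower genes and 9 of the pathway lists, and quantile normalization 5 of the pathway lists. With immunoglobulin genes left out and libraries rescaled to 1 total without them, 6 passed (5 higher, 1 lower, 0 of the pathway lists). Without 1 wild type library, 45 to 73 passed (41 to 72 higher, 1 to 4 lower, 0 of the pathway lists in each fit). As reported these counts were 122, 108, 14 and 3, and the cause of these shifts was not tested. No paired analysis was possible because the knockout and wild type columns share only 1 replicate number. Unknown depth limits what can be said of low genes such as Tgfb2 and Ltbp1.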
